A study of Caenorhabditis elegans with 12 samples.

Results

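The insulin receptor to DAF-16/FOXO pathway was followed gene by gene in cells of the proximal somatic gonad (PSG) of adult *C. elegans*. The 10 genes that encode its core were taken by name from the deposited table of 46687 genes: *daf-2*, *age-1*, *aap-1*, *daf-18*, *pdk-1*, *akt-1*, *akt-2*, *sgk-1*, *pptr-1* and *daf-16*. All 10 names were found. The rule used their place in the pathway and no measured value, although earlier results of these data were known when the genes were listed. Of these genes, only *akt-1* passed edgeR's test for a difference between groups, with 4.77-fold more *akt-1* RNA in *daf-2(rf)* than in double mutants that also lacked *daf-16* on D1, a call that was lost when any 1 of the 3 D1 *daf-2(rf)* libraries was left out.

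The study sorted GFP-positive cells from dissociated hermaphrodites on D1 and D7 of adulthood and sequenced their polyadenylated RNA after SMARTer amplification. The *daf-2(rf)* animals carried *daf-2(e1370)*, a reduction-of-function allele of the insulin receptor gene, and the *daf-16(0); daf-2(rf)* animals carried *daf-16(mu86)*, a null allele, in addition to *daf-2(e1370)*. Every group had 3 libraries, so that 12 libraries formed 4 groups, all labelled untreated. The comparison of genotypes at each age addresses which PSG transcripts depend on *daf-16* when insulin signaling is reduced.
All 4 groups carried *daf-2(e1370)* and a GFP transgene driven by the *fos-1a* promoter, and no group had intact insulin signaling, so no value here measures the effect of the *daf-2* allele itself. Cells of many animals were pooled in each dissociation, and the sort kept cells whose size and GFP fluorescence passed a gate set on unlabelled animals. The methods describe the 3 libraries of a group as biological replicates. Each group stands in 2 of the 4 comparisons below (genotypes on D1, genotypes on D7, and D7 against D1 within each genotype), and these comparisons are therefore not independent of each other.

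In this pathway, insulin-like peptides bind the receptor DAF-2, which activates a phosphoinositide 3-kinase made of the catalytic subunit AGE-1 and the adaptor subunit AAP-1. The lipid product recruits the kinases PDK-1, AKT-1 and AKT-2, and the lipid phosphatase DAF-18 removes it again. SGK-1, a kinase related to AKT, is also counted in the pathway. AKT kinases phosphorylate the forkhead transcription factor DAF-16, which holds it in the cytoplasm, while PPTR-1, a regulatory subunit of the phosphatase PP2A, acts in the opposite direction by promoting dephosphorylation of AKT-1. The pathway is best known in *C. elegans* for dauer formation and adult lifespan. It acts largely through protein phosphorylation and localization, neither of which is measured by RNA levels.

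The libraries held 6183054 to 16407304 gene reads each, and the 10 most abundant genes took between 27.3% and 73.5% of them. Levels are given as read counts normalized for library size (CPM, with edgeR's TMM method) over the 12 libraries, whose factors ran from 0.385 in D1 double-mutant replicate 3 to 3.22 in D7 *daf-2(rf)* replicate 2. On this scale, 1 read stood for 0.0249 to 0.373 CPM, and a count of 0 allows up to 3 reads, which limits counting error only. Replicates spread more widely than sampling noise in all 12 pairs (chi-square of at least 40.5 per degree of freedom). The marker *fos-1*, whose promoter drove the GFP, was read in all libraries, and the 10 PSG markers summed to 754 to 1981 CPM per library. Markers of other tissues were present too. On D1, 6 of the 8 germ line markers tested, 3 of 6 intestinal markers and 1 of 5 neuronal markers were called lower in *daf-2(rf)*. On D7, 1 of 6 intestinal markers was. Of all genes tested, 145 of 6430 were called lower in *daf-2(rf)* on D1 and 65 of 7933 on D7. The summed intestinal markers reached 417 to 674 CPM in *daf-2(rf)* and 475 to 2021 CPM in the double mutant on D1, and 22.8 to 55.7 CPM against 113 to 1119 CPM on D7. Of all markers listed, *spe-9* (sperm) had no read in either D1 group, *dpy-7* (hypodermis) none in D1 *daf-2(rf)* and *msp-142* (sperm) none in the D7 double mutant. Single markers differed from their sums: *elt-2* (intestine) had only 0 to 16 reads per library and *hlh-1* (body-wall muscle) only 0 to 14. In such bulk samples, fewer cells of a type and less RNA per cell cannot be told apart.

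*daf-16* (R13H8.1; chromosome I, 10750343-10776039, plus strand, WBcel235), which encodes the FOXO transcription factor and is the mutated gene that sets the double mutant apart, was examined first. On D1, it stood at 41.7, 38.2 and 35.02 CPM in *daf-2(rf)* and at 7.46, 4.94 and 18.6 CPM in the double mutant. On D7, the values were 43.4, 27.5 and 13.3 CPM in *daf-2(rf)* and 6.23, 6.88 and 10.3 CPM in the double mutant. The genotypes did not overlap at either age, although D7 *daf-2(rf)* replicate 3 lay near the highest double-mutant library. The log2 fold change was 1.84 (95% confidence interval 0.74 to 2.93) on D1 and 1.83 (0.83 to 2.83) on D7, with adjusted p = 0.0706 and 0.0819 from edgeR with Benjamini-Hochberg adjustment, and the gene was not called. Leaving out D1 double-mutant replicate 3 gave a log2 fold change of 2.63 and a call (edgeR, adjusted p = 0.0410). Reads were summed over the whole gene, including any parts that the allele leaves in place. In the count table, 6 non-coding RNA genes overlap *daf-16*, with 226 reads in all beside 3785 on *daf-16* itself, 156 of them on the antisense gene *H36N01.2*. The strand setting of the counting is not given in the sources used here, so reads of *daf-16* and of its antisense neighbour may not be fully separated.

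Levels differed widely along the pathway. To compare genes, CPM was divided by the exon length in kilobases given with the counts. Averaged over the 12 libraries, *pptr-1* was the most abundant member at 44.3 CPM per kb, followed by *akt-1* at 15.2, *akt-2* at 8.01, *daf-16* at 4.80, *aap-1* at 4.30, *daf-2* at 3.67, *age-1* at 2.28, *daf-18* at 1.39, *pdk-1* at 0.960 and *sgk-1* at 0.556 CPM per kb. Among the 8096 genes that passed the filter of the 12-library fit, this range ran from the 93.1 percentile for *pptr-1* to the 4.64 percentile for *sgk-1*, with *daf-2* near the middle at 49.5. *pptr-1* lay above *akt-1* without overlap in each of the 4 groups. The next place was less settled: *akt-1* lay above *akt-2* without overlap in D1 *daf-2(rf)* and in the D7 double mutant, whereas the ranges of the pair overlapped in the D1 double mutant and in D7 *daf-2(rf)*. *daf-16* held the fourth place in D1 *daf-2(rf)*, with 8.70 ± 0.762 CPM per kb (SD, n = 3), and the seventh place in the D7 double mutant, with 1.77 ± 0.493 CPM per kb (SD, n = 3). *daf-2*, *aap-1* and *age-1* followed each other closely in D1 *daf-2(rf)*, where neighbouring ranges overlapped. At the low end, *sgk-1* was last in both *daf-2(rf)* groups without overlap. *pdk-1* was last in both double-mutant groups, without overlap on D7, whereas on D1 its range overlapped that of *sgk-1*, which was higher in 2 of 3 libraries.

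**Figure D1:**
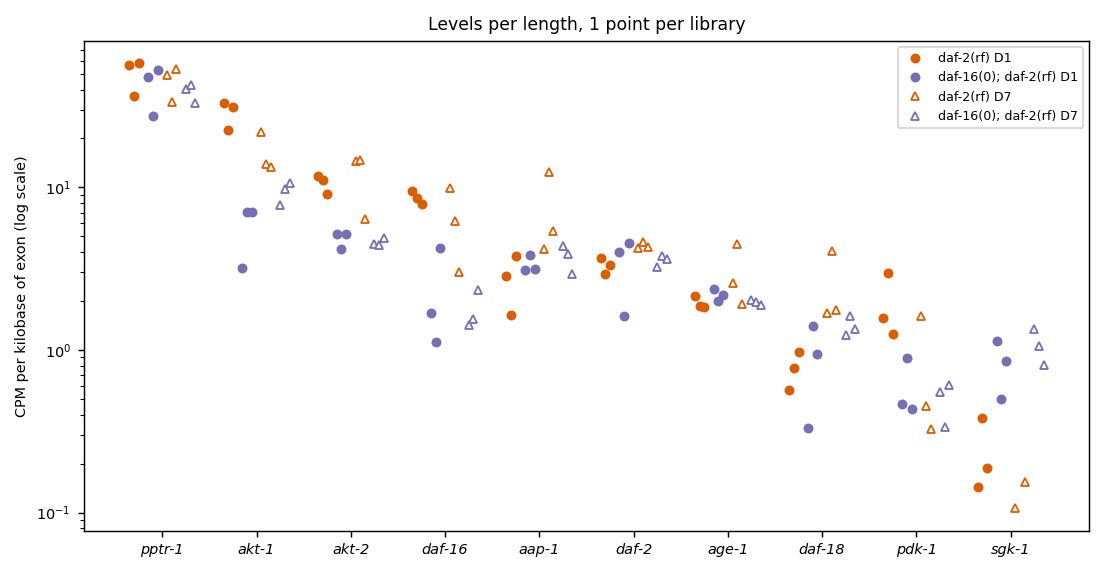
Level of each pathway gene per library on a logarithmic axis, in CPM per kb of exon length, with genes ordered by their mean over the 12 libraries and points for single libraries of the 4 groups. *pptr-1* lies highest in every group and *sgk-1*, *pdk-1* and *daf-18* have the lowest means over all libraries; the D7 *daf-2(rf)* library with no *sgk-1* read cannot be drawn on this axis.

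Most of the ligand genes were hardly read in these cells, whereas *ins-10* and *ins-17* had 1056 and 703 reads in all and were read in all 12 libraries. The table holds 40 insulin-like peptide genes, of which 5 had no read in any library and 23 had no more than 3 reads in any library (the 5 included). *ins-10*, *ins-17* and *ins-19* passed the filter in at least 1 comparison, and none was called. *ins-10* stood at 3.80 ± 1.49 CPM in *daf-2(rf)* and 14.8 ± 13.6 CPM in the double mutant on D1 (SD, n = 3), with an adjusted p of 0.136 from edgeR with Benjamini-Hochberg adjustment. *ins-17* ranged most widely, from 1.39 ± 0.718 CPM in the D7 double mutant to 15.1 ± 18.1 CPM in the D1 double mutant (SD, n = 3), where the SD exceeded the mean. Neuronal markers, given for this as for every list, summed to 189 to 646 CPM in the D1 double mutant and to 137 to 187 CPM in D1 *daf-2(rf)*, without overlap. Their part in the ligand values was not tested.

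*daf-2* (Y55D5A.5; chromosome III, 3006850-3028800, minus strand), the receptor gene, was not called in any comparison. On D1, it stood at 22.8, 18.1 and 20.6 CPM in *daf-2(rf)* and at 24.6, 9.98 and 28.04 CPM in the double mutant. On D7, the values were 26.3, 28.5 and 26.6 CPM in *daf-2(rf)* and 19.9, 23.5 and 22.5 CPM in the double mutant. The genotypes overlapped on D1, and on D7 the *daf-2(rf)* libraries all lay above the double mutant, by a small margin. The D7 log2 fold change was 0.31 (standard error 0.24, 95% confidence interval -0.24 to 0.85, edgeR adjusted p = 0.522), and the D1 value was -0.07 (interval -1.03 to 0.89). In *daf-2(rf)*, the D7 libraries also all lay above the D1 libraries, with a log2 fold change of 0.45 (interval -0.12 to 1.02, edgeR adjusted p = 0.324). These transcripts are those of the mutant allele in all 12 libraries. By Pearson correlation of log2 CPM over the 12 libraries, the 5 genes whose pattern was most like that of *daf-2*, out of 8095, were *Y111B2A.9* (r = 0.885), *Y50D7A.8* (0.843), *srg-23* (0.838), *F26A1.13* (0.836) and *K08C7.4* (0.835). These coefficients are descriptions, since all genes share the 12 libraries and their normalization.

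The subunits of the lipid kinase showed no call either. *age-1* (B0334.8; chromosome II, 11519499-11527062, minus strand), the catalytic subunit, varied little between libraries. Its D1 levels were 8.08, 6.99 and 6.91 CPM in *daf-2(rf)* and 8.95, 7.51 and 8.24 CPM in the double mutant. Its D7 levels were 9.76, 16.9 and 7.23 CPM in *daf-2(rf)* and 7.63, 7.43 and 7.17 CPM in the double mutant. The single library that stood apart was D7 *daf-2(rf)* replicate 2, and the genotypes overlapped at both ages. The log2 fold change between genotypes was -0.23 (interval -1.05 to 0.59) on D1 and 0.61 (-0.20 to 1.42) on D7.

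*aap-1* (Y110A7A.10; chromosome I, 5107841-5110164, plus strand), the adaptor subunit, stood on D1 at 5.11, 2.92 and 6.76 CPM in *daf-2(rf)* and at 5.59, 6.90 and 5.61 CPM in the double mutant. On D7, the values were 7.498, 22.1 and 9.70 CPM in *daf-2(rf)* and 7.78, 7.00 and 5.25 CPM in the double mutant. In *daf-2(rf)*, every D7 library lay above every D1 library, replicate 2 of D7 far above the others. The log2 fold change with age was 1.48 (standard error 0.49, edgeR adjusted p = 0.139) and 0.83 (edgeR adjusted p = 0.399) without that replicate. The gene *Y110A7A.21* overlaps *aap-1* on the opposite strand, with 90 reads in all beside 1926 on *aap-1*.

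*daf-18* (T07A9.6; chromosome IV, 419987-425173, minus strand), which encodes the lipid phosphatase that opposes AGE-1, followed the same order of libraries on D7 *daf-2(rf)* as *aap-1*. On D1, it stood at 1.90, 2.61 and 3.26 CPM in *daf-2(rf)* and at 1.12, 4.73 and 3.15 CPM in the double mutant. On D7, the values were 5.67, 13.5 and 5.93 CPM in *daf-2(rf)* and 4.12, 5.39 and 4.51 CPM in the double mutant. All D7 *daf-2(rf)* libraries thus lay above the D1 libraries of the same genotype, and by a narrow margin above the D7 double mutant. With age in *daf-2(rf)*, the log2 fold change was 1.75 (standard error 0.46, 95% confidence interval 0.71 to 2.79, edgeR adjusted p = 0.0986), the largest of the members in that comparison. It was 1.17 (edgeR adjusted p = 0.252) without D7 replicate 2. In the double mutant, the change with age was 0.54 (interval -0.59 to 1.67, edgeR adjusted p = 0.488).
D7 *daf-2(rf)* replicate 2, which held the highest *age-1*, *aap-1* and *daf-18* levels of all libraries, was also the library with the largest TMM factor and the lowest summed PSG markers (754 CPM, beside 979 and 1859 CPM in the other two). The part of that library's composition in the levels was not tested.

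*pdk-1* (H42K12.1; chromosome X, 1321353-1327985, plus strand) encodes the kinase that phosphorylates the AKT kinases and was read at low levels. Its D1 values were 3.80, 7.20 and 3.03 CPM in *daf-2(rf)* and 1.12, 2.16 and 1.05 CPM in the double mutant, without overlap. Its D7 values were 3.92, 1.10 and 0.788 CPM in *daf-2(rf)* and 1.34, 0.805 and 1.48 CPM in the double mutant, with overlap. The D1 log2 fold change was 1.53 (standard error 0.54, interval 0.34 to 2.73, edgeR adjusted p = 0.134), which did not pass. The values rested on 3 to 69 reads per library on D1, and the gene passed the filter through *daf-2(rf)* alone, where it was higher.

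*akt-1* (C12D8.10; chromosome V, 10248905-10251739, plus strand), which encodes 1 of the AKT kinases that phosphorylate DAF-16, differed most clearly between the genotypes. On D1, 651, 503 and 942 reads in *daf-2(rf)* corresponded to 77.4, 52.5 and 73.1 CPM, and 20, 159 and 94 reads in the double mutant to 7.46, 16.4 and 16.5 CPM. The lowest *daf-2(rf)* library thus lay far above the highest library of the double mutant. The means were 67.7 ± 13.3 and 13.4 ± 5.18 CPM (SD, n = 3), and the log2 fold change was 2.25 (standard error 0.43, 95% confidence interval 1.29 to 3.21, edgeR adjusted p = 0.0264). With this, *akt-1* was 1 member called of the 9 tested on D1, where 3.51% of the 6430 genes tested were called and 1.26% were called higher in *daf-2(rf)*.
The direction was the same in every setting tried, with a log2 fold change between 2.24 and 2.40 and an adjusted p between 3.71e-05 and 0.0270 in the 7 other settings of edgeR or DESeq2 that kept all libraries. The call did not survive every omission of 1 library. Without D1 *daf-2(rf)* replicate 1, 2 or 3, the edgeR adjusted p was 0.0972, 0.0618 and 0.104, and without double-mutant replicate 3 it was 0.0521, while the log2 fold change stayed between 2.05 and 2.45 over all 6 omissions. In these 4 fits, 16, 6, 2 and 127 genes were called in all, in place of 226.

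On D7, *akt-1* stood at 51.2, 32.4 and 31.2 CPM in *daf-2(rf)* and at 18.03, 22.9 and 24.8 CPM in the double mutant. The genotypes did not overlap, but lay closer together than on D1. The log2 fold change was 0.80 (standard error 0.29, interval 0.13 to 1.47, edgeR adjusted p = 0.195). With age, all D7 libraries of *daf-2(rf)* lay below all its D1 libraries (log2 fold change -0.78, interval -1.48 to -0.08, edgeR adjusted p = 0.187), whereas all D7 libraries of the double mutant lay above its D1 libraries (0.68, interval -0.23 to 1.58, edgeR adjusted p = 0.284). Neither passed the test. The interaction term of the 12-library fit, the D7 log2 fold change between genotypes less that of D1, was -1.51 (standard error 0.51, interval -2.60 to -0.42, unadjusted p = 0.0103), with an adjusted p of 0.118 from edgeR and of 0.0251 from DESeq2, both Benjamini-Hochberg adjusted. By edgeR, therefore, the *akt-1* difference was not shown to differ between the ages.

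**Figure D2:**
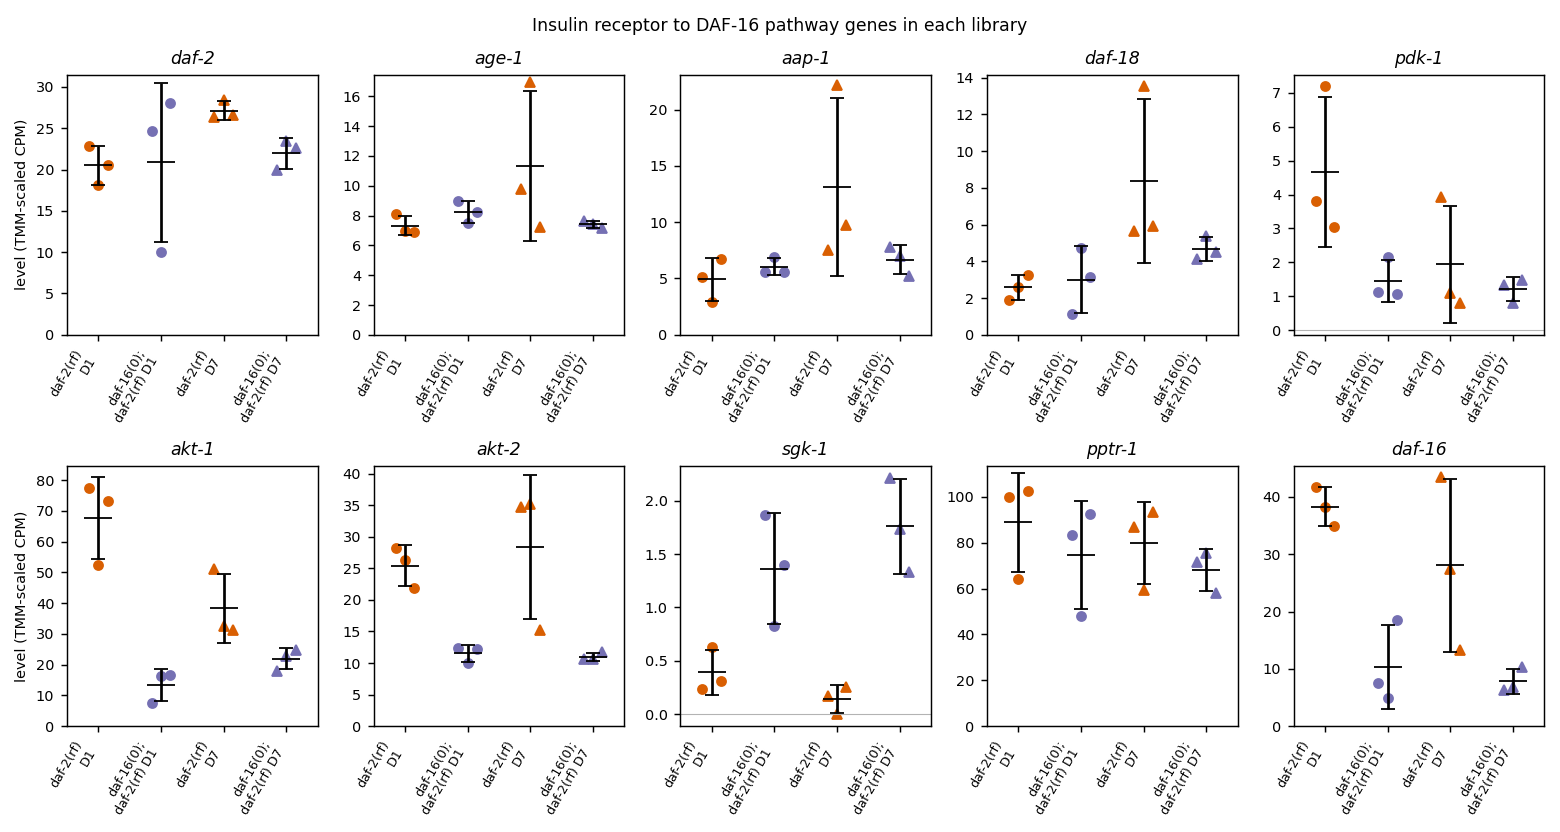
Level of each pathway gene in CPM, 1 panel per gene, with a point for each library and a bar at the mean ± SD of the 3 libraries of a group. The D1 *daf-2(rf)* libraries of *akt-1* lie between 52.5 and 77.4 CPM and those of the D1 double mutant between 7.46 and 16.5 CPM, while *daf-2*, *age-1* and *pptr-1* overlap between the genotypes on D1.

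Some germ line, intestinal and neuronal markers were called lower in D1 *daf-2(rf)*, although the summed germ line markers overlapped (103 to 229 CPM against 153 to 230 CPM). The summed body-wall muscle markers were lower there without overlap (211 to 342 CPM against 426 to 742 CPM), with 0 of the 4 tested called. The part of these tissues in the *akt-1* difference was not tested. *akt-1* was also set against other reads of the same library. These ratios were chosen after the values were seen and carry no test. For each read on *pptr-1*, D1 *daf-2(rf)* had 0.773, 0.819 and 0.714 reads on *akt-1*, and the D1 double mutant had 0.0893, 0.340 and 0.178. For each 1000 reads on the 10 PSG markers, there were 40.2, 26.9 and 36.9 *akt-1* reads in D1 *daf-2(rf)* and 5.83, 15.01 and 8.43 in the double mutant. Relative to *akt-2*, D1 *daf-2(rf)* had ratios of 2.75, 2.00 and 3.35 and the D1 double mutant of 0.606, 1.64 and 1.34. On each of these scales the D1 genotypes stayed apart. On D7 they overlapped on all of them: the *akt-1* to *pptr-1* ratio in *daf-2(rf)* was 0.590, 0.546 and 0.334, and that in the double mutant was 0.253, 0.304 and 0.427, and D7 *daf-2(rf)* replicate 3, with 16.8 *akt-1* reads per 1000 PSG marker reads, fell among the double-mutant libraries (9.43, 17.9 and 21.1). *akt-2* and *daf-16* behaved alike, apart between the genotypes on D1 and overlapping on D7 against both *pptr-1* and the PSG markers. Between the ages, *akt-1* in *daf-2(rf)* stayed apart against *pptr-1* but overlapped against the PSG markers. There, D7 replicates 1 and 2 (52.3 and 43.0) lay above all D1 libraries. In the double mutant, the ages overlapped on both of these scales. Relative to *akt-2*, the ages overlapped in *daf-2(rf)*. In the double mutant, that ratio was higher on D7 without overlap (1.70, 2.16 and 2.12, against 0.606, 1.64 and 1.34 on D1).

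**Figure D3:**
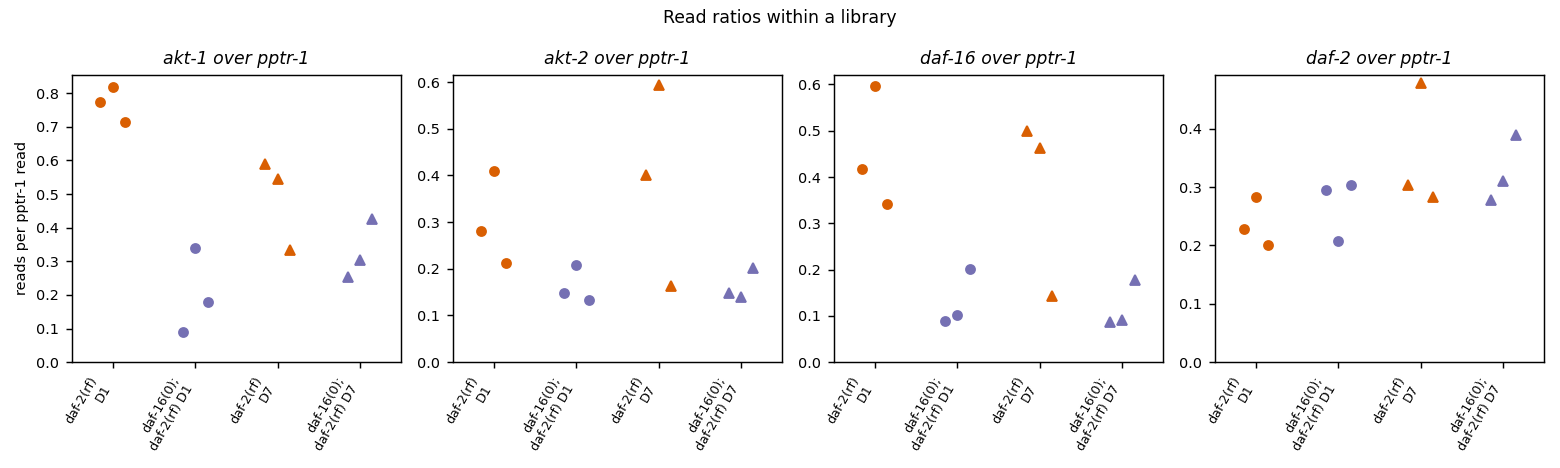
Reads on *akt-1*, *akt-2*, *daf-16* and *daf-2* for each read on *pptr-1* of the same library, with 1 point per library and no normalization between libraries. For *akt-1* the genotypes lie apart on D1 (0.714 to 0.819 against 0.0893 to 0.340) and overlap on D7, and for *daf-2* they overlap at both ages.

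*akt-2* (F28H6.1; chromosome X, 14147700-14151968, plus strand) encodes the other AKT kinase. Its D1 libraries stood at 28.2, 26.3 and 21.8 CPM in *daf-2(rf)* and at 12.304, 9.984 and 12.269 CPM in the double mutant. Its D7 libraries stood at 34.7, 35.2 and 15.3 CPM in *daf-2(rf)* and at 10.6, 10.6 and 11.7 CPM in the double mutant. On the CPM scale, every *daf-2(rf)* library lay above every double-mutant library at both ages, and the double-mutant libraries were closely alike. The log2 fold change was 1.08 (standard error 0.36, interval 0.30 to 1.87, edgeR adjusted p = 0.115) on D1 and 1.36 (0.35, interval 0.57 to 2.16, edgeR adjusted p = 0.0954) on D7. Neither was called, and DESeq2 called both (adjusted p = 0.0486 and 0.0169). With age, *akt-2* differed by 0.20 (interval -0.59 to 1.001) in *daf-2(rf)* and by -0.08 (interval -0.86 to 0.70) in the double mutant, and its interaction term was 0.23 (interval -0.80 to 1.25, edgeR adjusted p = 0.800).

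*sgk-1* (W10G6.2; chromosome X, 16254840-16260128, minus strand), which encodes a kinase related to AKT, was the rarest member. On the CPM scale, it was the only one whose D1 and D7 libraries were all lower in *daf-2(rf)* than in the double mutant. On D1, *daf-2(rf)* had 2, 6 and 4 reads and the double mutant 5, 8 and 8, or 0.238, 0.626 and 0.311 CPM against 1.86, 0.823 and 1.40 CPM. The D1 read counts themselves overlapped, so that their separation in CPM rests on the normalization. On D7, *daf-2(rf)* had 2, 0 and 9 reads and the double mutant 43, 28 and 18, or 0.174, 0 and 0.253 CPM against 2.22, 1.73 and 1.33 CPM. Too few reads were present for a test on D1 or with age in *daf-2(rf)*. On D7, the gene passed the filter through the double mutant alone, and its log2 fold change was -3.64 (standard error 0.96, interval -5.84 to -1.44, edgeR adjusted p = 0.106), while DESeq2 called it (adjusted p = 0.00357). Intestinal markers were also higher in the D7 double mutant without overlap. Their part in the *sgk-1* difference was not tested.

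*pptr-1* (W08G11.4; chromosome V, 16357521-16366599, plus strand), the PP2A regulatory subunit gene, was abundant and overlapped between groups in all 4 comparisons. The D1 libraries stood at 100.1, 64.03 and 102 CPM in *daf-2(rf)* and at 83.5, 48.2 and 92.4 CPM in the double mutant. The D7 libraries stood at 86.8, 59.4 and 93.5 CPM in *daf-2(rf)* and at 71.4, 75.5 and 58.0 CPM in the double mutant. Replicate 2 was the lowest library in 3 of the 4 groups. Its log2 fold changes lay between -0.14 and 0.23, and the 95% intervals of the genotype differences, -0.74 to 1.13 on D1 and -0.45 to 0.92 on D7, leave room for a 2-fold difference only on D1.

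Counted over the members, D7 gave 0 calls between the genotypes among 10 tested by edgeR, where 1.15% of the 7933 genes tested were called. *sgk-1* had entered this test through the double mutant alone, where it was higher, and is left out of the next counts. The shares of all genes beside these counts, here and on D1, include genes that entered through 1 group alone. Of the 9 members that passed the filter in both groups, 3 had an unadjusted p under 0.05 (*akt-1*, *akt-2* and *daf-16*), beside 18.8% of all genes, and 2 (*akt-2* and *daf-16*) were called by DESeq2, which called 8.85% of all genes. The groups did not overlap at 5 of the 9, all higher in *daf-2(rf)* (*daf-2*, *daf-18*, *akt-1*, *akt-2* and *daf-16*), beside 12.2% of all genes tested. *sgk-1* was lower in *daf-2(rf)* without overlap, as were 13.3% of all genes. On D1, *pdk-1* and *daf-18* had passed the filter through *daf-2(rf)* alone. Of the other 7 members tested, 3 were higher in *daf-2(rf)* without overlap (*akt-1*, *akt-2* and *daf-16*), beside 18.2% of all genes. The same 3 had an unadjusted p under 0.05, beside 24.9% of all genes, and were called by DESeq2, which called 11.8% of all genes. *daf-16* is among them, and carries the mutation that defines the groups.

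With age, edgeR called 0 of 9 members in *daf-2(rf)*, where 0.218% of 7337 genes were called. An unadjusted p under 0.05 was reached by 3 (*aap-1*, *daf-18* and *akt-1*), beside 22.2% of all genes, and DESeq2 called 1 (*daf-18*), beside 8.87% of all genes. The ages did not overlap at *daf-2*, *aap-1* and *daf-18*, higher on D7, and at *akt-1*, lower on D7, beside 13.4% and 14.9% of all genes tested. In the double mutant, where *daf-18*, *pdk-1* and *sgk-1* passed the filter through D7 alone, 0 of 10 members were called by edgeR, beside 0.583% of 7541 genes, 0 had an unadjusted p under 0.05 (29.7% of all genes did), and DESeq2 called 0, beside 17.9% of all genes. Only *akt-1* did not overlap between the ages there, higher on D7, beside 21.0% of all genes. No member passed the interaction test of edgeR (0 of 10, beside 0.704% of 8096 genes), 1 (*akt-1*) had an unadjusted p under 0.05, beside 23.6% of all genes, and DESeq2 passed the same 1, beside 10.4% of all genes.

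**Figure D4:**
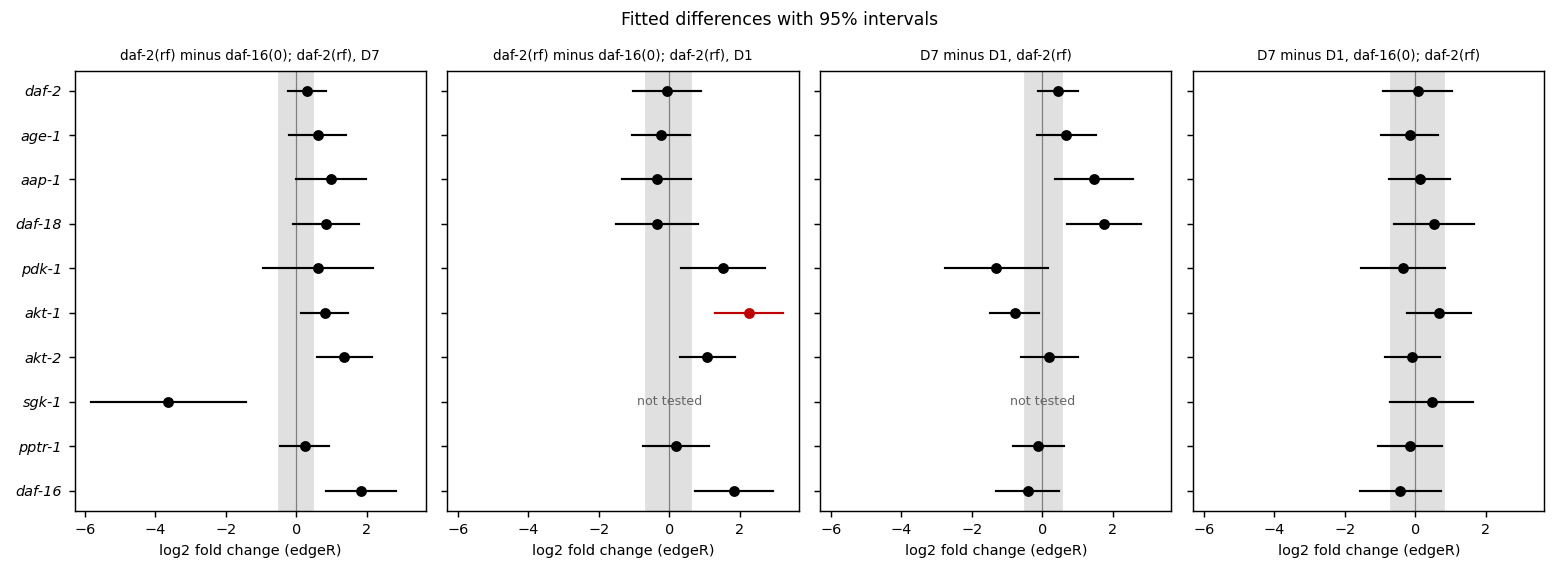
log2 fold change of each pathway gene in the 4 comparisons with its 95% confidence interval from edgeR, where positive values stand for higher levels in *daf-2(rf)* or on D7, against the interquartile range of all genes tested as a grey band. Only *akt-1* between the genotypes on D1 (2.25) was called and is drawn in red.

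Around the core, 94 further genes of the pathway were taken from hand-written lists: insulin-like peptides, adaptors with PP2A and 14-3-3 subunits, regulators and partners of DAF-16, the TOR pathway, transcription factors that act beside DAF-16, and genes known as DAF-16 targets in whole worms. On D7, 51 of them were tested and 1 was called, beside 1.15% of all genes tested. It was the metallothionein gene *mtl-1*. In *daf-2(rf)*, 19, 35 and 32 reads fell on it, and in the double mutant 0, 1 and 0 (edgeR adjusted p = 0.0477), and with so few reads its fold change depends on the fit. The gene entered the test through *daf-2(rf)* alone, which fixed its direction. Of the 6 fits that each left out 1 D7 library, 5 called none of the list. On D1, 43 were tested and 1 was called, beside 3.51% of all genes tested. This was the mitochondrial superoxide dismutase gene *sod-3*. It stood at 12.2, 10.1 and 3.42 CPM in *daf-2(rf)* and at 0.746, 1.13 and 0.876 CPM in the double mutant (log2 fold change 3.07, standard error 0.60, edgeR adjusted p = 0.0264). At both ages, *sod-3* passed the filter through *daf-2(rf)* alone. On D7, it stood at 24.5, 14.6 and 2.25 CPM in *daf-2(rf)* and at 0.309, 0.743 and 0.961 CPM in the double mutant, without overlap (4.35, standard error 0.86, edgeR adjusted p = 0.0558). On D1, *sod-3* was not called without *daf-2(rf)* replicate 1, 2 or 3, without double-mutant replicate 3, or in the fit of all 12 libraries.

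Of the 12 whole-worm DAF-16 target genes tested on D7, 8 passed the filter through *daf-2(rf)* alone and 4 through both groups, and of the 9 tested on D1, 3 passed through *daf-2(rf)* alone and 6 through both. A gene that entered through 1 group alone tends to be higher there by the filter itself, so that the signs and the median of this list are not given. Several of these targets are known to be expressed in the intestine, whose 6 markers tested all had negative log2 fold changes at both ages, and the part of that tissue was not tested. With age in the double mutant, *sip-1*, a small heat-shock protein gene of this list, fell from 32.8, 20.1 and 16.5 CPM on D1 to 0.412, 0.681 and 2.00 CPM on D7 (log2 fold change -4.52, standard error 0.64, edgeR adjusted p = 0.0321). The gene was the 1 call among 45 genes of the lists tested in that comparison, beside 0.583% of all genes tested. It passed the filter through D1 alone, with 8, 11 and 27 reads on D7, and was not called without D1 replicate 1 or 3 or without D7 replicate 2. Of the germ line markers, 1 of 9 tested was called lower on D7 there, as was 1 of 2 hypodermal markers, and their part was not tested. With age in *daf-2(rf)*, 0 of 50 genes of the lists were called by edgeR, beside 0.218% of all genes. Of these 50, 13 had an unadjusted p under 0.05, beside 22.2% of all genes, and DESeq2 called 7, beside 8.87% of all genes.

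Among the regulators without a call, *prmt-1*, which encodes an arginine methyltransferase that acts on DAF-16, had opposite signs at the ages. It stood at 12.9 ± 6.23 CPM in *daf-2(rf)* and 51.7 ± 28.8 CPM in the double mutant on D1, and at 119 ± 77.2 and 20.7 ± 11.5 CPM on D7 (SD, n = 3). The log2 fold change was -2.06 (edgeR adjusted p = 0.0663) on D1 and 2.53 (edgeR adjusted p = 0.0803) on D7, and it was 3.27 (edgeR adjusted p = 0.0509) with age in *daf-2(rf)*. The TOR kinase gene *let-363* stood at 26.9 ± 1.17 and 12.1 ± 4.01 CPM on D1 and at 22.7 ± 0.608 and 33.6 ± 11.7 CPM on D7, in *daf-2(rf)* and the double mutant (SD, n = 3), with edgeR adjusted p = 0.136 and 0.361. Its partner *daf-15*, the worm Raptor, had the same order of means, with 27.5 ± 11.5 and 9.13 ± 6.59 CPM on D1 and 24.4 ± 5.16 and 36.1 ± 6.97 CPM on D7 (edgeR adjusted p = 0.144 and 0.355). On D1, *daf-15* passed the filter through *daf-2(rf)* alone. The 14-3-3 genes *ftt-2* and *par-5*, whose products bind phosphorylated DAF-16, were the most abundant of their list together with the PP2A gene *paa-1*. *ftt-2* stood at 310 ± 130 to 827 ± 538 CPM in the 4 groups (SD, n = 3). The log2 fold change of *par-5* was -1.45 (edgeR adjusted p = 0.154) on D1 and 0.86 (edgeR adjusted p = 0.217) on D7. Opposite signs at the ages were thus not particular to *prmt-1*, since *par-5*, *let-363* and *daf-15* had them too.

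**Figure D5:**
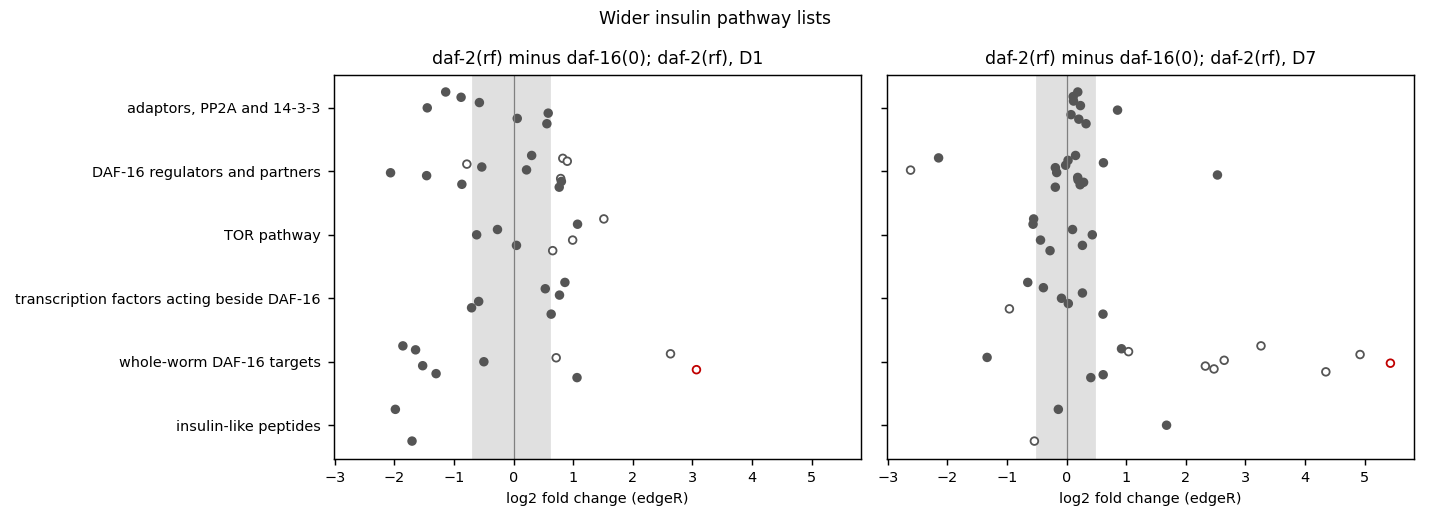
log2 fold changes of the genes of the wider lists between the genotypes on D1 and on D7, with a point for each gene tested, open points for genes that passed the filter through 1 group alone, and the interquartile range of all genes tested as a grey band. Among the whole-worm DAF-16 targets tested, 8 of 12 on D7 and 3 of 9 on D1 are open points, and the called genes *mtl-1* (D7) and *sod-3* (D1) are drawn in red.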

How the data were processed

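RNA of sorted PSG cells was analysed in 12 libraries. Per the labels, the authors' processing notes name HISAT2 2.0.5, StringTie 1.3.3b, featureCounts 1.5.0-p3 and the WBcel235 genome. The authors deposited whole-number read counts per gene, without normalization, which were used here. The FPKM values deposited beside them were not used. Batches, dates, the annotation release and the strand setting are not given in the sources used here. The gene bounds in the count table differed from those of the reference annotation for all 10 members.

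Counts were normalized with TMM and tested in R 4.3.3 with edgeR 4.0.16 (quasi-likelihood F test). A gene entered a fit when each of the 3 libraries of some group held over 10 reads, and p-values were Benjamini-Hochberg adjusted over all genes that entered. Calls needed an adjusted p under 0.05 and a log2 fold change of 1 or more in either direction, and the interaction, fitted over all 12 libraries, at an adjusted p under 0.05. Standard errors were derived from the size of the log2 fold change and its F statistic. The p-values measure the spread between 3 libraries per group. Steps were tested on simulated data.

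All 10 members are named. Of the wider lists, the genes called, the insulin-like peptides that passed the filter and, in lists without a call, up to 4 of the most abundant genes could be named. *swsn-8* and *mlst-8* were not matched by name. The members and lists were chosen with earlier results of these data known. The alternatives were DESeq2 1.42.0, its size factors, upper-quartile factors, no filter on low counts, omission of the 20 most abundant genes, a replicate block, a single fit of all libraries, and the omission of each library in turn. No sequence is printed.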

Additional observations from a re-analysis of the deposited data

Results flagged for a closer look

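On the CPM scale, *akt-1* differed with age in opposite directions in the genotypes: every D7 library of *daf-2(rf)* lay below its D1 libraries, and every D7 library of the double mutant lay above its D1 libraries. Neither difference passed the test (edgeR adjusted p = 0.187 and 0.284). Against the PSG markers, the ages overlapped in both genotypes, and against *pptr-1* in the double mutant. Relative to *akt-2*, they overlapped in *daf-2(rf)*, whereas in the double mutant the D7 libraries lay higher without overlap. The interaction term was -1.51 on the log2 scale, with a Benjamini-Hochberg adjusted p of 0.118 from edgeR, above the threshold of 0.05, and of 0.0251 from DESeq2. Over the other edgeR settings the adjusted p lay between 0.0877 and 0.250.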

How the results depend on the processing

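Of the values of single members under settings that kept all libraries, 246 of 266 kept their direction and their side of the threshold, 15 passed it newly and 5 changed sign. With 1 library left out, 207 of 228 kept both, 4 lost the call (all *akt-1* on D1), 1 gained it and 16 changed sign. DESeq2 called 702 of 7933 genes on D7, 761 of 6430 on D1 and 651 of 7337 with age in *daf-2(rf)*, against 91, 226 and 16 by edgeR, and 846 of 8096 in the interaction. Among the members it called 3 on D7, 3 on D1, 1 with age in *daf-2(rf)* and 1 in the interaction. Without a filter on low counts, 1025, 861 and 863 of all genes and 3, 2 and 2 members were called in the first 3 of these comparisons, and with all 12 libraries in 1 fit 2 were called on D7. Of the wider lists, DESeq2 called 8 genes on D7, 4 on D1, 7 with age in *daf-2(rf)* and 8 with age in the double mutant, and no filter gave 11, 8, 7 and 9. The fit of all 12 libraries called 5, 0 and 8 of them on D7, on D1 and with age in the double mutant. Beside these stood 253, 218 and 939 of 8096 genes. Upper-quartile factors called 2 genes of the lists with age in the double mutant, beside 49 of 7541 genes. In that comparison, DESeq2 called 1353 of 7541 genes, and no filter gave 1394 of 20830. The cause of these changes was not tested.

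The correlation of same-numbered libraries averaged -0.11 on D7, 0.088 on D1, -0.095 with age in *daf-2(rf)* and -0.039 with age in the double mutant. Libraries of different numbers averaged 0.055, -0.047, 0.045 and 0.020. Only on D1 was the same-numbered average the higher one, and 3 such correlations per comparison cannot settle whether the numbers pair the libraries. A replicate block called 478 of all genes on D1, in place of 226, and 0 on D7, in place of 91. It gave 2 member calls on D1 (*daf-16* beside *akt-1*) and, for the wider lists, 0 on D7 and 2 on D1. With age, the block called 1 gene of the lists in *daf-2(rf)*, beside 15 of 7337 genes. In the double mutant, it called 2 with age, beside 67 of 7541 genes.

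Some signs turned. For *daf-2* between genotypes on D1, no filter gave 0.12 and the block 0.034. With age in the double mutant, no filter gave 0.0047 for *age-1*, 0.082 for *akt-2* and 0.034 for *pptr-1*. That setting moved the median of all genes by 0.17 on D1 and 0.16 with age in the double mutant.

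Leaving out 1 library gave 0 to 1 member calls on D1. For the wider lists, it gave 0 to 1 on D7 and 0 to 2 on D1. With age, it gave 0 to 3 in *daf-2(rf)* and 0 to 6 in the double mutant. Calls over all genes in the same fits ran from 0 to 29 on D7 and from 2 to 474 on D1. With age, they ran from 0 to 231 in *daf-2(rf)* and from 0 to 635 in the double mutant. On D7, *pdk-1* then ran from -0.39 to 0.99. On D1, *daf-2* ran from -0.41 to 0.25, *daf-18* from -0.60 to 0.15 and *pptr-1* from -0.029 to 0.42. With age in *daf-2(rf)*, *akt-2* ran from -0.045 to 0.50 and *pptr-1* from -0.31 to 0.045. With age in the double mutant, *aap-1* ran from -0.033 to 0.27, *akt-2* from -0.18 to 0.0033, *daf-16* from -0.77 to 0.35, *daf-2* from -0.28 to 0.36, *pdk-1* from -0.55 to 0.15 and *pptr-1* from -0.38 to 0.049.

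With few reads on *sgk-1*, *pdk-1* and most of the ligand genes, differences within their counting error were not detectable at this depth.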
